A study of Rattus norvegicus with 34 samples.

Results

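Liver was compared with bile duct on TaqMan card A, using the library labelled liver and the library labelled bile duct. These are 2 of the 34 libraries of the series, chosen by their labels, and the other 10 rat tissues measured on card A without preamplification served as background. All 12 tissues came from Sprague-Dawley rats of 4 weeks, and no treatment is named for any of them. Male and female rats were used, and the sex behind each tissue is not given. Total RNA was extracted with TRIzol, and each tissue has 1 library on the card, so every difference below describes 2 libraries and has no replicate error. The number of animals behind a library and the extent of the bile duct that was removed are not given in the sources used here.

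Bile is made by hepatocytes, which fill most of the liver, and is carried away by ducts lined with cholangiocytes, the epithelial cells of the biliary tree. Whole liver also holds small bile ducts, blood vessels and blood cells, and the wall of the large duct holds connective tissue beneath its epithelium. In the rat, which has no gallbladder, the common bile duct runs through the pancreas and receives pancreatic ducts. A miRNA is a short RNA that binds messenger RNAs and lowers their translation or stability. miR-122 is the best-known miRNA of hepatocytes, and members of the miR-200 family mark many epithelia. The files number the positions of the card and do not pair them with miRNAs, so the values below are given by position, no position was assigned to either of these miRNAs, and the tissue labels could not be checked against named markers.

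Each position holds 1 assay, for a miRNA or a control RNA, and its value is the Cp, the PCR cycle in which the fluorescence of the well passed a set threshold. A lower Cp means more template, and a difference of 3 cycles is 8-fold if template doubles in every cycle. Of the 384 positions, 4 that repeat nearly the same Cp (11, 12, 35, and 36) were left out, which leaves 380. In the repeated positions the Cp was 19.2 ± 0.188 (SD, n = 4 wells) in liver and 18.7 ± 0.280 in bile duct. The wells hold an abundant RNA, and their spread says nothing of weak positions or of other animals.

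At the detection limit of Cp 35, 174 of the 380 positions were detected in liver (45.8%, 95% Wilson confidence interval 40.8% to 50.8%) and 228 in bile duct (60%, 55.0% to 64.8%). These intervals cover counting error only. The other 10 tissues ran from 125 positions in pancreas to 249 in lung, so that only pancreas had fewer than liver. The highest Cp of an amplified well was 42.0 in liver and 44.3 in bile duct. Bile duct is thus among the 5 libraries with values above 43, called longer runs, together with pancreas, salivary gland, prostate, and lacrimal gland. The other 4 longer runs are all exocrine glands, and so run length and glandular tissue cannot be told apart in this series.

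Of the positions, 167 were detected in both liver and bile duct (43.9%, 39.0% to 49.0%) and 145 in neither. Detection was in bile duct alone at 61 positions (16.1%, 12.7% to 20.1%) and in liver alone at 7 (1.84%, 0.895% to 3.75%). In 43 of the 61 the liver well did not amplify at all. The median Cp of bile duct at the 61 was 32.5, so that many were weak signals near the limit. A median of 6 of the other 10 tissues also detected them, and 4 of the 61 were detected in none of these. The excess of bile duct held with the limit at Cp 32 in both tissues (49 in bile duct alone and 9 in liver alone) and at Cp 40 (77 and 5). With the limit of bile duct at Cp 32.03, as far from its scale (described next) as that of liver, it did not hold, and 23 positions were detected in bile duct alone and 29 in liver alone.

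Libraries were put on a common scale by subtracting from each the median Cp over the 84 positions detected in all 12 tissues. This median was 28.4 in liver and 25.4 in bile duct, a difference of 2.97 cycles, while the repeated positions differed by only 0.464 cycles. The distance between scale and repeated positions was 9.22 cycles in liver and 6.72 cycles in bile duct, the smallest of the 12 tissues. The choice of scale therefore moves every difference between the tissues by up to 2.97 cycles, and it is given with the counts below. Over the 167 shared positions the scaled difference had an SD of 2.45 cycles, a median of 1.03 cycles toward higher expression in liver, and 50 positions lay within 1 cycle.

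A position was counted as different when the scaled Cp differed by at least 3 cycles. Where only 1 of the tissues was detected, the limit of the other gave a lower bound, and the bound had to reach 3 cycles. Among the 235 positions detected in liver or bile duct, 30 were higher in liver, which is 12.8% of these positions, and 17 were higher in bile duct, which is 7.23%. Of the 30, 25 were measured in both tissues and 5 were bounds. Of the 17, 10 were measured and 7 were bounds. The sizes ran from 3.02 to 9.02 cycles toward liver and from 3.04 to 8.48 cycles toward bile duct.

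**Figure D1:**
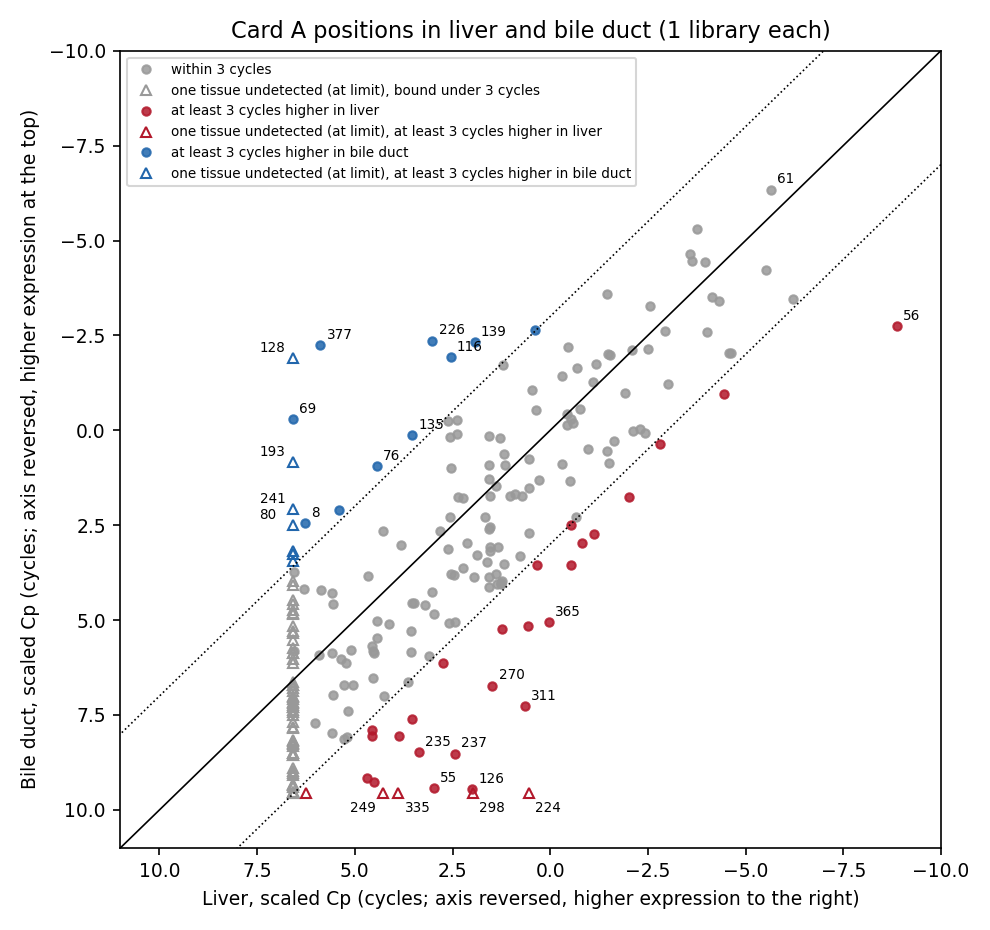
Scaled Cp of card A positions in liver (x axis, cycles) and bile duct (y axis, cycles), both axes reversed so that higher expression lies to the right and at the top; points are positions, 1 library per tissue, open triangles have 1 tissue undetected and set at its limit, the solid line marks equality and the dotted lines a difference of 3 cycles. The 30 positions higher in liver lie below the lower dotted line, with position 56 at the far right, and the 17 higher in bile duct lie above the upper one.

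Which tissue had more of these positions changed with the scale. With no scaling 7 positions were higher in liver and 75 in bile duct, and when the repeated positions gave the scale the numbers were 8 and 65. They were 18 and 29 with the median over the positions detected in liver and bile duct, and 22 and 24 when the other longer runs were left out of the choice of positions. The share of liver among the differing positions thus went from 63.8% to 8.54%. Of the 5, the scale used here is the one most favourable to liver. Every one of the 17 positions higher in bile duct was therefore also counted under the other 4, by construction, and 7 of the 30 positions higher in liver were. These 7 are positions 55, 56, 126, 224, 237, 298, and 311.

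**Figure D2:**
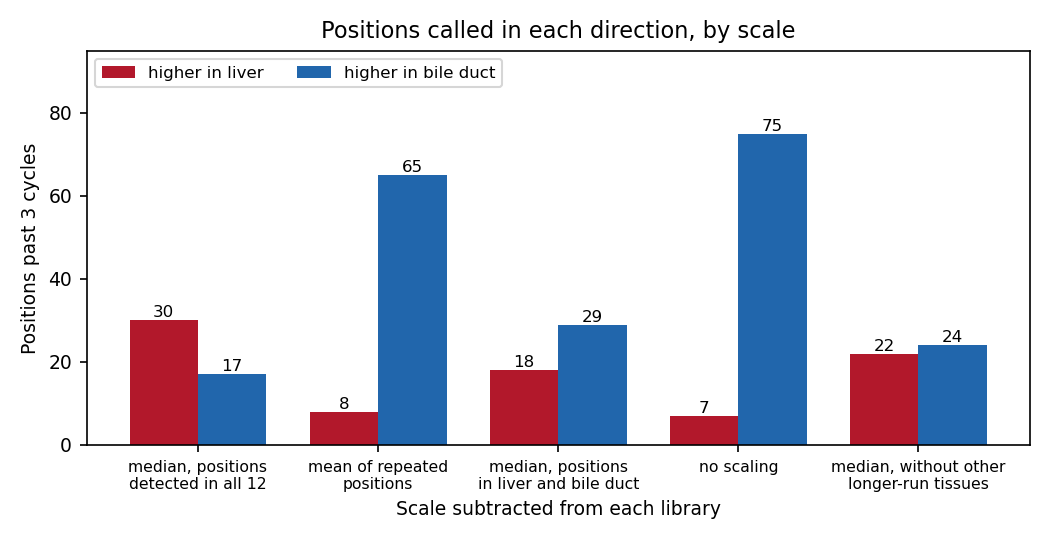
Number of card A positions (y axis) that differed by at least 3 cycles between liver and bile duct under each of 5 scales (x axis); red bars count positions higher in liver and blue bars positions higher in bile duct, 1 library per tissue. The bars change from 30 and 17 with the scale used here (first pair of bars) to 7 and 75 with no scaling.

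Position 56 was the earliest position of liver on the card and set both tissues apart from the other 10. Its Cp was 19.5 in liver and 22.7 in bile duct. Among the other tissues it was detected only in lacrimal gland (29.4), lung (31.9), and small intestine (31.99). Salivary gland had a Cp of 35.8, past the limit, and the wells of kidney, pancreas, prostate, heart, skeletal muscle, and spleen did not amplify. Liver and bile duct together led every other tissue by 5.07 scaled cycles, the only position where this pair led by at least 3. Between the pair, expression was 6.13 cycles higher in liver, and 3.16 cycles higher without scaling. Without bile duct, liver led the 10 other tissues by 11.2 cycles. Liver and bile duct also led jointly at position 374, by 0.503 cycles, and at position 181, by 0.0697 cycles, which is less than the spread between wells. By Cp alone liver was not ahead of all other tissues at these 2.

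The other positions that stayed higher in liver under all 5 scales were late in bile duct or undetected there. Position 224 had a Cp of 28.95 in liver and 42.7 in bile duct, past the limit, so that expression was at least 9.02 scaled cycles higher in liver. The 6 other tissues that detected it lay between 1.74 (skeletal muscle) and 3.58 (prostate) on the scale on which liver was at 0.537. Position 298 had a Cp of 30.4 in liver and 35.9 in bile duct, a bound of 7.58 cycles, and was detected in 8 of the other tissues. At both positions liver was earlier than all other tissues on the scale used here, and bile duct was among the tissues without detection. By Cp alone, lung (26.7) and spleen (28.4) were earlier than liver at position 224, and lung (27.6), heart, and spleen (30.1) at position 298.

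Position 126 differed most among the positions measured in both tissues, by 7.45 cycles (Cp 30.4 in liver and 34.9 in bile duct). It was also detected in pancreas at a scaled Cp of 0.312, lower than the 1.99 of liver (the Cp itself was 31.5, higher than in liver), and in heart, skeletal muscle, and spleen. Position 311 had a Cp of 29.1 in liver, 30.1 in small intestine, and 32.7 in both bile duct and kidney, and it was undetected in the remaining 8 tissues. Detection was thus limited to these 4 tissues, and liver exceeded bile duct by 6.62 scaled cycles. Position 55 (Cp 31.4 in liver and 34.9 in bile duct) differed by 6.46 cycles, with the nearest tissue, heart, at 3.09 against 2.98 in liver. In position 237 the difference was 6.08 cycles, and spleen (-0.632) had higher expression than liver (2.44). On this scale liver was earlier than all of the other 10 tissues in 5 of these 7 positions and in 10 of all 30. By Cp alone it was the earliest in 2 of the 7 (56 and 311) and in 4 of the 30. These positions were chosen for high expression in liver, so such leads are in part built in. Their share over all positions detected in liver was not counted. In 17 of the 30 bile duct had a Cp above 32 or was undetected.

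Among the measured positions with the largest differences, 270, 235, and 365 were higher in liver by 5.25, 5.11, and 5.02 cycles and fell under 3 cycles without scaling. Their Cp in liver was 29.9, 31.8, and 28.5, and in bile duct 32.2, 33.9, and 30.5. At these positions bile duct lay no more than 1.37 cycles later than the median of the other longer runs, with undetected wells set at their limit. The 1.37 cycles belong to position 235, where pancreas, salivary gland, and lacrimal gland did not amplify, so that this median rests on limits. At position 270 bile duct was 0.232 cycles later, and the longer runs were 4.39 cycles later than the median of the other 6 shorter runs. Of the bounds, position 335 (Cp 32.3 in liver) reached 5.67 cycles and position 249 (32.7) reached 5.28 cycles. Position 249 was otherwise detected in kidney, lung, and small intestine only.

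Over the 30 positions higher in liver, the other longer runs were later than the other shorter runs in 23, with a median of 1.66 cycles, against 128 of all 235 positions and a median of 0.189. When liver was set against the other 6 shorter runs and bile duct against the other 4 longer runs, 31 positions were higher in liver, 14 of them among the 30. All but position 237 of the 7 positions that held under every scale were among these 14. The contrast with each tissue's own run length was made on the scale used here only, and its directions were not tested under the others. Across the 167 shared positions, the difference between bile duct and liver correlated with that between the other longer and shorter runs at a Spearman coefficient of 0.266 and a Pearson coefficient of 0.363. These positions share the libraries and are not independent.

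**Figure D3:**
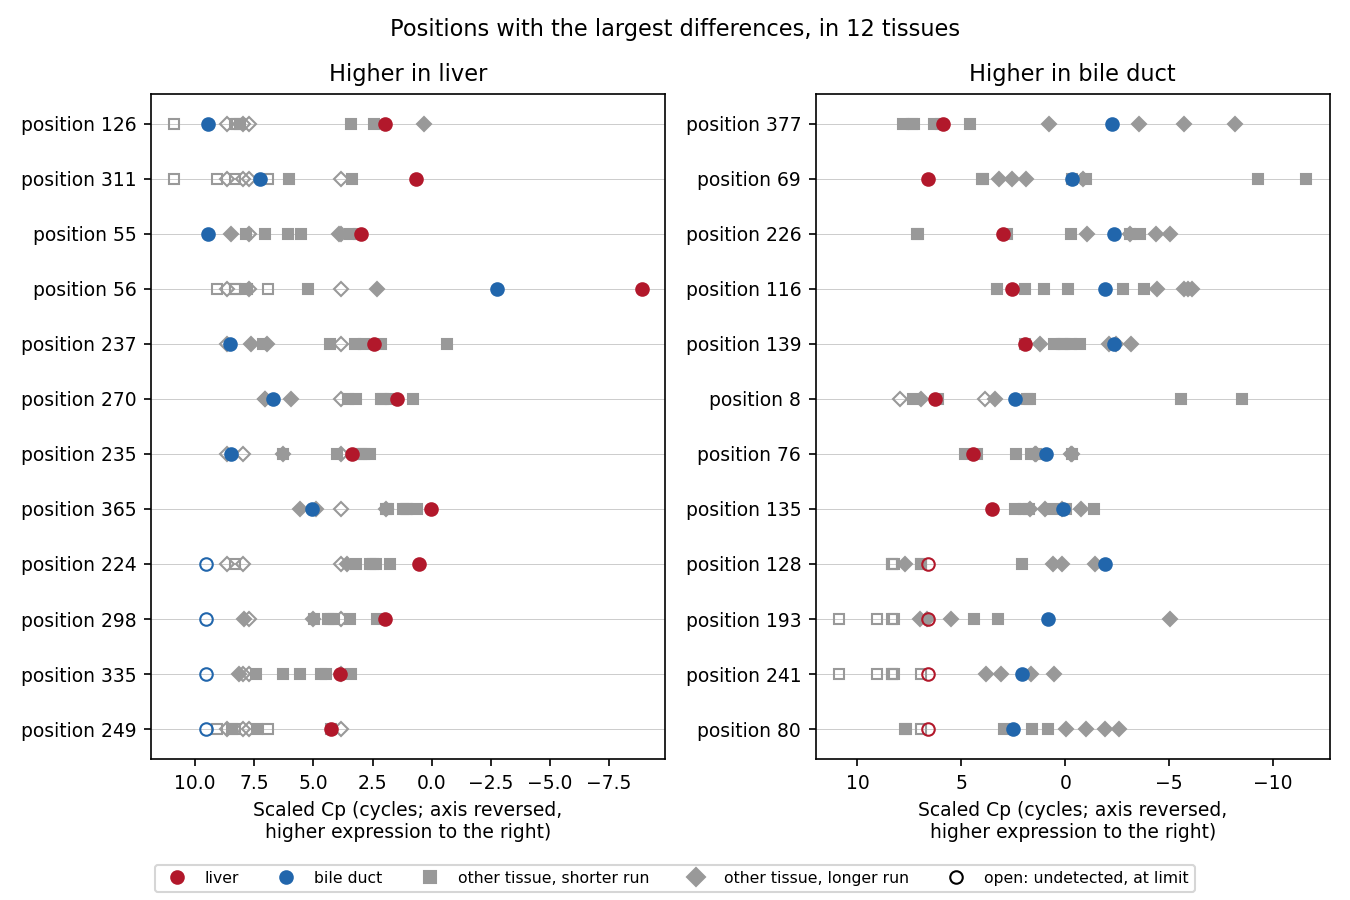
Scaled Cp (x axis, cycles, reversed so that higher expression lies to the right) in 12 tissues at the 8 largest measured differences and the 4 largest bounds toward liver (left) and toward bile duct (right); red and blue circles are liver and bile duct, grey squares and diamonds the other shorter and longer runs, and open symbols are undetected wells at their limit, 1 library per tissue. At position 56 liver and bile duct stand apart from all other tissues, and at position 377 bile duct and the 4 glands lie apart from all shorter runs.

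Position 377 had the largest measured difference toward bile duct, 8.12 cycles, with a Cp of 23.2 in bile duct and 34.3 in liver. Its Cp was 23.0 in pancreas, 22.8 in salivary gland, 21.5 in prostate, and 27.8 in lacrimal gland. In kidney, lung, heart, skeletal muscle, spleen, and small intestine it was between 31.9 and 34.1. The level thus divided the 12 tissues by run length without overlap, the exocrine glands and bile duct on one side. Set against its own run length, bile duct was 2.39 cycles later than the median of the other longer runs, and the direction turned to 3.29 cycles toward liver.

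Position 128 had the largest bound, 8.48 cycles. Its Cp was 23.5 in bile duct, and the liver well did not amplify. Pancreas (-1.42) was the nearest of the 6 other tissues that detected it, while bile duct was at -1.90 on the scale. The wells of kidney, heart, skeletal muscle, and small intestine did not amplify. Of the 17 positions higher in bile duct, this was the only one at which bile duct was earlier than all of the other 10 tissues on the scale, while by Cp alone there were 5. The share of such positions over all those detected in bile duct was not counted. The corresponding bounds were 5.74 cycles for position 193 (Cp 26.3 in bile duct), 4.51 cycles for position 241 (27.5), and 4.09 cycles for position 80 (27.9). Position 241 was detected in the 5 longer runs and in no shorter run.

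Positions 226 and 116 were higher in bile duct by 5.38 and 4.47 cycles. Position 226 had a Cp of 23.1 in bile duct and 31.4 in liver, and position 116 had 23.5 and 31.0. On the scale position 226 ran from -5.03 in prostate to 7.13 in heart, with bile duct at -2.36 and liver at 3.01. In both positions liver lay with heart, skeletal muscle, and spleen, and bile duct lay within the range of the other 7 tissues. Position 139 (Cp 23.1 in bile duct and 30.3 in liver) differed by 4.26 cycles, position 76 (26.4 and 32.9) by 3.50 cycles, and position 135 (25.6 and 31.9) by 3.41 cycles. At position 135 liver, at 3.53, had the lowest expression of the 12 tissues, all of which detected it.

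Positions 69 and 8 were also higher in bile duct, by 6.88 and 3.83 cycles, and belong to 3 positions led by heart and skeletal muscle when liver and bile duct were left out of the choice. Position 69 had a Cp of 25.1 in bile duct and lay just inside the limit in liver, against 17.4 in heart and 16.5 in skeletal muscle. Bile duct was thus 9.00 cycles later than heart and liver 15.9 cycles later. At position 8 these distances were 8.02 and 11.8 cycles. At position 70, the third of them, they were 11.1 and 12.4 cycles, and bile duct exceeded liver by 1.32 cycles. Signal of these positions was higher in bile duct than in liver at all 3. Under the other scales this follows by construction, because the scale used here is the most favourable to liver. The source of the signal was not tested.

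In 14 of the 17 positions higher in bile duct, the other longer runs were earlier than the shorter runs, by a median of 2.37 cycles over the 17. Over all 235 positions they were instead later in 128, with a median of 0.189 cycles later. Within its own run length bile duct then stood out little. It was a median of 0.195 cycles earlier than the other 4 longer runs, while liver was a median of 1.75 cycles later than the other 6 shorter runs. With each tissue set against its own run length, 10 positions were higher in bile duct, and 4 of them were among the 17 (positions 8, 15, 69, and 193). With undetected wells at their limit, the direction turned toward liver at 6 of the 17 on the scale used here. The values were 1.44 cycles at position 241, 1.58 at 219, 1.79 at 116, 2.21 at 115, 2.30 at 80, and 3.29 at 377. Liver was undetected at positions 80, 219, and 241, so that a turn toward liver is not established at these. Of the 30 positions higher in liver, 1 turned toward bile duct. None of the turns was tested under the other scales. Run length and glandular tissue cannot be told apart here.

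To place the 2 tissues by positions that they did not help to choose, positions were taken with higher expression in each of kidney, lung, small intestine, prostate, pancreas, lacrimal gland, and salivary gland than in each of heart, skeletal muscle, and spleen. There were 8 such positions on the scale used here, with undetected wells at their limit. Bile duct lay within the range of the first 7 tissues in 4 of them (80, 115, 116, and 226), between the groups in 3 (97, 114, and 205), and with the second group in 1 (296). Liver lay within the first group in 2 (97 and 296), between in 4 (with position 80, where it was undetected, at its limit), and with the second group in 2 (116 and 226). Bile duct exceeded liver by at least 3 cycles at 4 of the 8, against 7.23% of all positions tested, and liver exceeded bile duct by as much at none (12.8% of all). The 3 tissues of the second group are all shorter runs. With each tissue against its own run length on the scale used here, positions 80, 115, and 116 turned toward liver. The difference at position 226 was -0.376 cycles. None of these 4 values reached 3 cycles toward bile duct. The choice of positions required the other longer runs to be earlier than these 3 shorter runs. The shift toward liver against own run length is thus in part built in. The value at position 80 rests on liver set at its limit, so that a turn there is not established. At positions 114 and 115, bile duct had a Cp of 24.0 and 22.8 and liver had 28.1 and 28.8, and the difference was 1.14 and 3.04 cycles. Liver was instead higher by 1.27 cycles at position 97, by 0.0585 at position 205, and by 2.83 at position 296, and without scaling bile duct was the earlier at these 3 as well. The 8 positions therefore did not all separate bile duct from liver.

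Positions led by 1 tissue by at least 3 cycles were then taken among the 10 other tissues, again without liver and bile duct. Of 27 such positions, 19 were detected in bile duct (70.4%, against 60% of all 380 positions) and 8 in liver (29.6%, against 45.8% of all). With the limit of bile duct set as far from its scale as that of liver, these numbers were 12 and 8. At that limit 145 of all positions were detected in both tissues, and fewer in bile duct alone than in liver alone. The share of bile duct over all positions was thus below the 45.8% of liver at that limit. This share, and not 60%, is the background of the 12, and no excess of bile duct is shown there. Pancreas led 14 of the 27, and of these 10 were detected in bile duct (71.4%), 6 at the equal limit, and 2 in liver. The same lower background holds for the 6, and no excess is shown there either. At 9 of the 10, bile duct was later than pancreas by 5.86 (position 193) to 20.8 cycles (position 312). At position 345 it was 0.406 cycles later than pancreas (Cp 28.6 in bile duct and 33.9 in pancreas), and the liver well did not amplify. The limit of pancreas stood at 3.85 on the scale, and the next lowest limit among the 10 tissues at 6.92 (skeletal muscle). Any position that pancreas alone of the 10 detected was therefore led by pancreas by at least 3 cycles, by construction. The scales of pancreas and bile duct were 5.70 cycles apart. Without scaling, bile duct was 5.30 cycles earlier than pancreas at position 345, the opposite direction, and 0.157 cycles later at position 193. The part of pancreatic tissue in the bile duct library was not tested. Liver was detected at positions 257 and 364, and was 7.99 and 5.66 cycles later than pancreas there.

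Kidney and small intestine together led positions 104 and 107 among the 10 tissues. Liver was earlier than the later of this pair at both, with differences of -1.06 and -1.22 cycles, and bile duct was later than it by 1.48 and 1.95 cycles. The Cp of liver was 23.8 and 25.6, and that of bile duct was 23.4 and 25.8. Liver thus exceeded bile duct by 2.53 and 3.17 scaled cycles. Without scaling, bile duct minus liver was -0.435 cycles at position 104, the opposite direction, and 0.197 cycles at position 107. The Cp of kidney (23.2 and 25.1) was also lower than that of liver at both.

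Finally, whole profiles were compared over the 84 positions detected in all 12 tissues, where rank correlations do not depend on the scale. Liver and bile duct correlated at a Spearman coefficient of 0.577 (Pearson 0.605), which ranked 37 of the 66 pairs of tissues. Bile duct was most like kidney (0.792), prostate (0.781), salivary gland (0.773), and lung (0.763), and liver was most like kidney (0.762), small intestine (0.740), and spleen (0.727). All 4 other longer runs had a higher coefficient with bile duct than with liver, with 0.773 against 0.431 for salivary gland, 0.781 against 0.444 for prostate, 0.730 against 0.532 for lacrimal gland, and 0.474 against 0.372 for pancreas. Among the shorter runs the coefficient with bile duct was higher for lung (0.763 against 0.623), skeletal muscle (0.611 against 0.573), and kidney (0.792 against 0.762). That with liver was higher for spleen (0.727 against 0.549), heart (0.631 against 0.548), and small intestine (0.740 against 0.721). The correlations are across positions, which are not independent replicates.

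**Figure D4:**
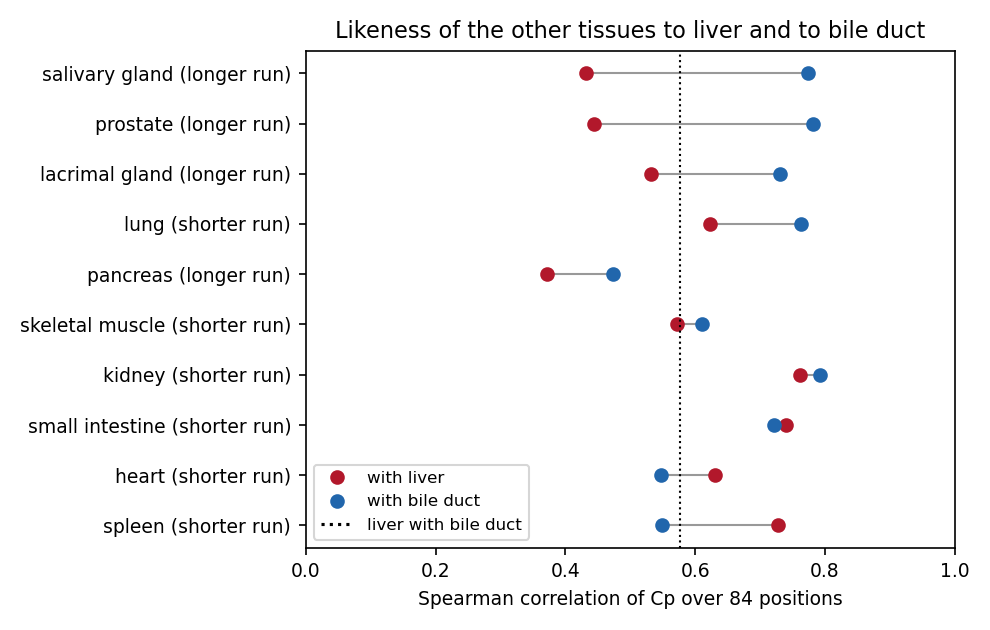
Spearman correlation of Cp over the 84 positions detected in all 12 tissues (x axis) between each of the other 10 tissues (y axis) and liver (red) or bile duct (blue), 1 library per tissue; the dotted line is liver against bile duct at 0.577. Salivary gland, prostate, and lacrimal gland lie closer to bile duct, and spleen and heart closer to liver.

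The SD of the difference between liver and bile duct over these 84 positions was 2.41 cycles, against a median of 2.71 over all 66 pairs (1.40 to 3.79). Of the 35 pairs of a longer and a shorter run, 7 had a smaller SD. Of the positions detected in both tissues, 21.0% differed by at least 3 cycles, and the median over the pairs of unequal run length was 25.3% (13.9% to 40.9%). Liver and bile duct were thus neither among the most alike nor among the least alike of the tissues.

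The most abundant positions were largely shared. Of the 12 earliest positions in each tissue, 8 were the same. Except for position 56, which was among the 12 earliest in this pair only, these were so in 6 to 12 of the 12 tissues. The overlap is thus mostly not particular to liver and bile duct. Position 61 was the earliest in bile duct (Cp 19.1) and the third in liver (22.8), and it was among the 12 earliest in 11 of the 12 tissues. Its scaled difference was 0.698 cycles toward bile duct. Position 27, seventh in liver (Cp 24.0), was among the 12 earliest in no other tissue and was 3.50 cycles higher in liver than in bile duct (0.535 cycles without scaling), where it ranked 36. Position 329, seventh in bile duct (Cp 21.9), ranked 30 in liver and was among the 12 earliest in 1 other tissue.

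On card B the rows of liver and bile duct did not correlate (Spearman coefficient 0.0954 over 380 positions, against 0.814 on card A), and so no position was compared there.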

How the data were processed

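Cp values of TaqMan card A were read by the authors from the amplification plots (ABI Prism 7900 HT, with SDS software and RQ Manager, versions not given in the sources used here). The deposited values are Cp before any normalization, with 50 for wells without amplification. The series text names the rodent kit, and a sample label the human kit. Positions carry no names, so scaling to U6 and marker lists could not be used. Cp above 35 was set as undetected, columns were centred on their median over positions detected in all 12 tissues, and differences were counted from 3 cycles. With 1 library per tissue and card no test was made. Alternatives were other limits, scales, sizes, and sets of positions. Named positions were the 8 largest measured differences and 4 largest bounds per direction, leads of at least 3 cycles by liver, bile duct, or both, and the earliest position of each tissue. Other positions named were chosen after their values were seen. The members and lists were chosen with earlier results of these data known. The comparison was tested on simulated data, in which the repeated positions of a library shared the offset of its other positions. In liver and bile duct they did not, so the simulation says nothing of the choice of scale. The 5 preamplified samples per card were not used here. Analyses were run in Python 3.11.15 with pandas 2.3.3, numpy 2.4.6, matplotlib 3.10.9, and scipy 1.17.1.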

Additional observations from a re-analysis of the deposited data

Results flagged for a closer look

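Card B was not used by position, and it also held signal in the compared tissues. There 148 of 380 positions were detected in liver and 121 in bile duct, with no control sample to set these numbers against. The order was the reverse of that on card A, where 174 were detected in liver and 228 in bile duct.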

How the results depend on the processing

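The 25 positions named by rule kept their direction in all 398 values obtained under the limits and scales tried, also with each of the other 10 tissues left out of the scale. Nearly all of them were named for the size of their difference in these data, so that this outcome is in part built in. For those toward bile duct, the 4 other scales could only enlarge the difference. Positions 249 and 335 gave no value with a limit of 32, where neither tissue was detected. When each tissue was set against its own run length, 4 of the 12 largest toward bile duct turned (80, 116, 241, and 377) and none of the 12 toward liver. This was done on the scale used here only, and the turns were not tested under the others. At positions 80 and 241 liver was undetected and set at its limit, so that a turn there is not established. At the bounds toward liver, bile duct was likewise set at its limit, so the contrast rests in part on the limits. Positions higher in liver numbered 30. They were 17 with a limit of 32, 52 with a limit of 40, 8 with the repeated positions as scale, 18 with the median over positions detected in liver and bile duct, 7 with no scaling, 60 when 2 cycles were counted, 12 when 5 were, and 7 over positions detected in all 12 tissues. Positions higher in bile duct numbered 17, and in the same order 10, 49, 65, 29, 75, 29, 5, and 8. They were 10 when positions detected in only 1 tissue were left out and 10 with each tissue against its own run length. With each other tissue left out of the scale, the numbers ran from 24 to 42 in liver and from 15 to 22 in bile duct. With the limits at equal distance from the scale, 29 positions were detected in liver alone and 23 in bile duct alone. This limit and the count over positions detected in all 12 tissues were chosen after seeing the data. The SD of the difference was 2.03 cycles with a limit of 32, and the Spearman coefficient was 0.680 with a limit of 40. Of positions led by 1 of the other 10 tissues, 9 were detected in bile duct and 3 in liver with a limit of 32, and 34 and 17 with a limit of 40. The number of led positions at these limits is not given, so these counts cannot be read as shares or set against all positions. At positions led by liver, bile duct was later than liver by 6.13 cycles (position 56), and by a median of 3.62 with the repeated positions as scale, 5.08 with the median over positions detected in both, 5.50 without the other longer runs, 3.16 with no scaling, and 5.71 to 6.65 with each other tissue left out. At positions led by bile duct, bile duct was later than liver by the same 6.13, 3.62, 5.08, and 5.50 cycles, and by 5.71 to 6.40 with each other tissue left out. With no scaling the value at positions then led by bile duct was -4.41, which is the opposite direction. Limits and sizes change the counts by construction, and for the other alternatives the cause was not tested. No library has a replicate, so none could be left out. No paired analysis was possible because only 1 library was made of each tissue for each card.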
